A study of Mus musculus with 9 samples.

Results

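The genes described here are 10 subunits of voltage-gated calcium channels: the pore-forming subunits Cacna1a, Cacna1b, Cacna1c, Cacna1d and Cacna1e, the alpha2delta subunits Cacna2d1, Cacna2d2 and Cacna2d3, and the beta subunits Cacnb2 and Cacnb4. Their members on the array were the probe sets that the platform annotation assigns to 1 of these genes and to no other gene, 510 of 1256831 probe sets. Of these, 464 had a mean signal above the limit for dim probe sets (5.64 on the log2 scale) and entered the gene levels, so that all 10 genes were among the 16854 genes tested. The gene level is the mean log2 signal of a gene's kept probe sets. Since probe sets differ in how brightly they bind, levels are compared between arrays for 1 gene and not between genes.

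Exon arrays were hybridised with RNA of cerebral cortex from mouse embryos at stage E13.5, with 1 array per sample and 3 samples per group. The groups were controls labelled wild type, Sfpq+/- embryos (heterozygous knock-out) and Sfpq-/- embryos (homozygous knock-out). The protein made from Sfpq binds RNA and DNA in the nucleus and takes part in transcription and splicing. The labels give no strain, litter, deleted exon or Cre driver, and name no allele that all groups share. Whether the embryos of a group were littermates is not stated, and p-values therefore reflect only the spread among the arrays at hand.

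A voltage-gated calcium channel opens when the membrane is depolarised and lets calcium into the cell. The alpha1 subunit forms the pore and the voltage sensor and sets the current type, the intracellular beta subunit binds the alpha1 subunit and helps it reach the membrane, and the extracellular alpha2delta subunit raises the number of channels at the surface. In neurons Cav1 (L-type) channels couple calcium entry to gene regulation, while Cav2 channels trigger transmitter release at presynaptic terminals.

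Over all 23 Sfpq probe sets, the gene level of Sfpq was 10.14 ± 0.23 in control, 10.25 ± 0.24 in Sfpq+/- and 8.98 ± 0.27 in Sfpq-/- (SD, n = 3 each). Sfpq was lower by 2.22-fold in Sfpq-/- against control (log2 change -1.15, adjusted p 0.000787, limma), and its change in Sfpq+/- did not pass (0.12, adjusted p 0.900). The 12 probe sets with a control mean above 10, chosen through the group where they are high, averaged 12.09 ± 0.02, 11.96 ± 0.11 and 10.13 ± 0.17 in the same order, which is given as a description. Array medians lay between 5.65 and 5.70. Xist signal split the arrays into 3 female ones (control 1, control 2 and Sfpq-/- 1, at 11.48 to 11.79) and 6 male ones (4.90 to 5.87), so that every Sfpq+/- array was male. The tissue is bulk cortex, in which fewer cells of a type and less RNA per cell cannot be told apart. Of 11 measured pan-neuronal markers, 0 were lower and 1 (Ina) was higher in Sfpq-/-, and their summed linear signal, in units of 1000, was 22.6 to 24.5 in control, 24.1 to 26.7 in Sfpq+/- and 24.5 to 26.1 in Sfpq-/-. Of 11 measured cortical progenitor and neuron markers, 4 were lower (Neurog2, Neurod6, Lhx2 and Eomes), with sums of 20.1 to 21.3, 21.7 to 22.8 and 17.9 to 18.3 in the same units and order. Microglia markers were higher for 7 of 10 (sums of 2.34 to 2.44 in control, 2.36 to 2.57 in Sfpq+/- and 2.90 to 2.99 in Sfpq-/-). Of the other lists, ganglionic eminence genes gave 1 higher of 10, endothelium and pericytes 1 of 9, and meninges (9 measured), erythroid cells (6) and striated muscle (8) 0 in either direction. The ganglionic eminence sums were uneven among the control arrays. They ran from 4.08 to 7.32 in control, 4.19 to 5.81 in Sfpq+/- and 5.31 to 5.76 in Sfpq-/-. No measured marker was at 0 on all arrays. The part of these cell types in the results below was not tested.

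In Sfpq-/- cortex some of the channel genes were lower and others did not pass. Cacna2d1 fell most among the 10, by 2.00-fold, the beta subunits Cacnb4 and Cacnb2 fell by 1.42-fold and 1.498-fold, and of the 5 pore-forming subunits 1, Cacna1c, fell by 1.25-fold. At an adjusted p under 0.05 in limma, 4 of the 10 genes were lower in Sfpq-/- than in control, where 6.12% of all genes tested were lower, and 0 were higher, where 5.98% of all genes were. All 3 Sfpq-/- arrays lay below all 3 control arrays for 6 of the 10 genes (10.8% of all genes) and above them for 1, Cacna1b (16.1% of all genes). The median change of the 10 genes was -0.23 on the log2 scale, and that of all genes was 0.03. An unadjusted p under 0.05 was reached by 7 of the 10, against 24.2% of all genes.

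**Figure D1:**
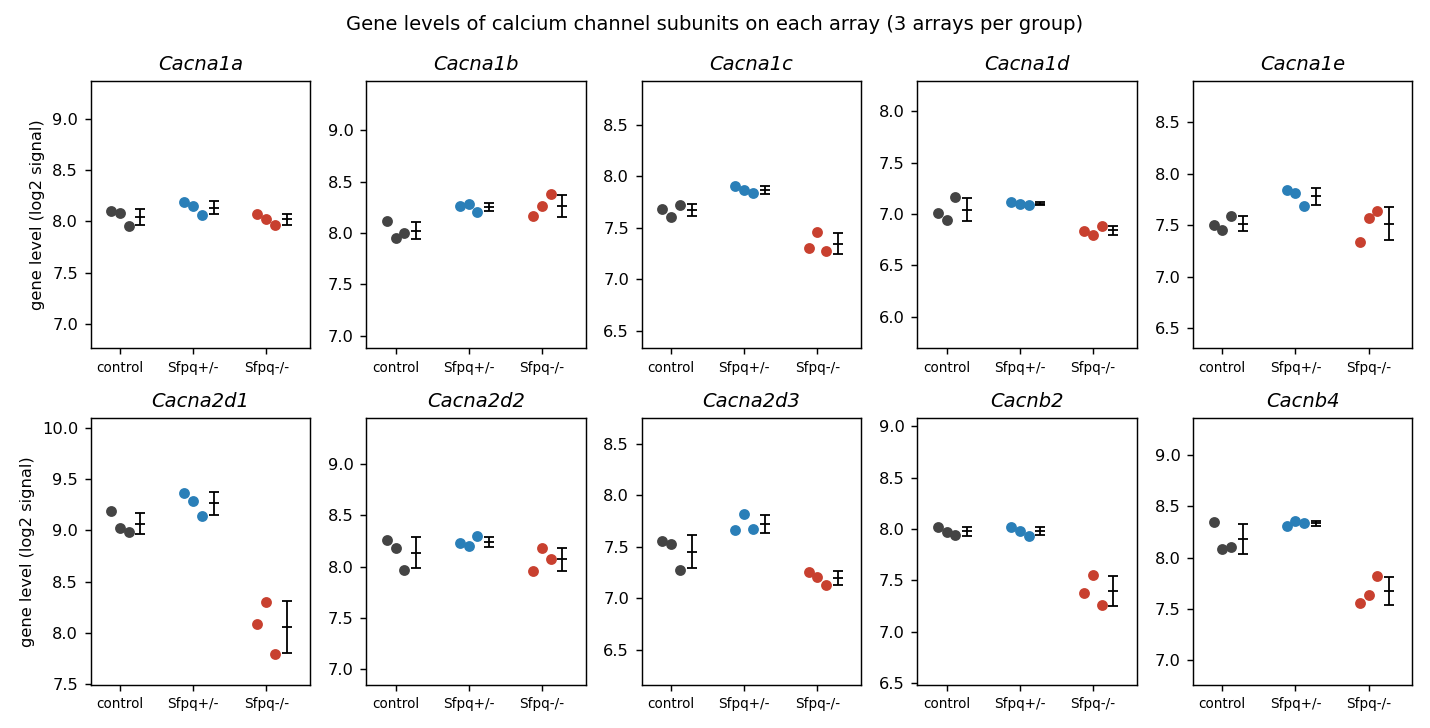
Gene levels (mean log2 signal of the kept probe sets, vertical axis) of the 10 calcium channel genes on each of the 9 arrays, by group (points), with the mean and SD of each group beside them (dash and error bar, n = 3). The Sfpq-/- arrays of Cacna2d1 lie between 7.79 and 8.30, below every control array (8.99 to 9.18), whereas those of Cacna1a, Cacna1e and Cacna2d2 overlap with the control arrays.

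Among the pore-forming subunits, Cacna1c encodes Cav1.2, the main L-type channel of brain and heart. Its gene level on the 3 control arrays was 7.68, 7.61 and 7.72, on the Sfpq+/- arrays 7.91, 7.87 and 7.84, and on the Sfpq-/- arrays 7.30, 7.46 and 7.27. The 3 groups did not overlap, with Sfpq+/- highest and Sfpq-/- lowest. Cacna1c fell 1.25-fold in Sfpq-/- against control (log2 change -0.32, SE 0.08, adjusted p 0.0173, limma), with changes of -0.35 among male arrays and -0.34 among female ones. This call did not hold in every fit: the adjusted p was 0.0536 without control 1, 0.0656 without control 3, 0.0788 without Sfpq-/- 1 and 0.0547 when the Sfpq+/- arrays were left out of the model. The other L-type subunit, Cacna1d (Cav1.3, which opens at less depolarised potentials), measured 7.01, 6.95 and 7.16 in control, 7.12, 7.09 and 7.09 in Sfpq+/-, and 6.84, 6.80 and 6.88 in Sfpq-/-. Its Sfpq-/- arrays also lay below all control arrays, but the change of -0.20 did not pass (SE 0.08, adjusted p 0.124, 95% interval -0.37 to -0.03).

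None of the 3 pore-forming subunits of the Cav2 class passed the test in either direction. Cacna1b, the N-type channel Cav2.2, measured 8.11, 7.95 and 8.004 in control, 8.27, 8.28 and 8.21 in Sfpq+/-, and 8.16, 8.26 and 8.38 in Sfpq-/-. Both Sfpq groups lay above the controls and overlapped with each other; the change in Sfpq-/- was 0.24 (SE 0.08, adjusted p 0.0768, 95% interval 0.07 to 0.42). With array weights its change was 0.21 and passed (adjusted p 0.0287). Cacna1a, the P/Q-type channel Cav2.1, measured 8.10, 8.08 and 7.96 in control and 8.07, 8.02 and 7.97 in Sfpq-/- (change -0.03, adjusted p 0.888, 95% interval -0.19 to 0.14). Cacna1e, the R-type channel Cav2.3, measured 7.498, 7.46 and 7.59 in control and 7.33, 7.57 and 7.64 in Sfpq-/- (change -0.00, adjusted p 0.991, 95% interval -0.21 to 0.20). For both genes the arrays of the 2 groups overlapped. The interval of Cacna1e includes the change measured for Cacna1d (-0.20), and that of Cacna1a ends just short of it.

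Among the subunit groups of the 10 genes, the alpha2delta genes are the group whose members differed most in their change. RefSeq (GRCm38.p6) lists 1 start for each of them in the promoter table, and the window from 250 bases before to 50 bases after that start is shown for all 3, because all 3 are GC-rich while the changes of the genes differed. Capitals mark GC boxes (GGGCGG on either strand), and each sequence is written 5′ to 3′ on the strand of its gene.
Cacna2d1, chr5:15934441-15934740, plus strand: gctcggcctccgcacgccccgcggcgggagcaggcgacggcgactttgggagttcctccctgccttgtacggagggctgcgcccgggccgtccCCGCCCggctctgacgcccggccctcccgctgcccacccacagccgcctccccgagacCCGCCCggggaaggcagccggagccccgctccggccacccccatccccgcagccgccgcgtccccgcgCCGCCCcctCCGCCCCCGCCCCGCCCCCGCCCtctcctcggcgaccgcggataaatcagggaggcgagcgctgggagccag
Cacna2d2, chr9:107399630-107399929, plus strand: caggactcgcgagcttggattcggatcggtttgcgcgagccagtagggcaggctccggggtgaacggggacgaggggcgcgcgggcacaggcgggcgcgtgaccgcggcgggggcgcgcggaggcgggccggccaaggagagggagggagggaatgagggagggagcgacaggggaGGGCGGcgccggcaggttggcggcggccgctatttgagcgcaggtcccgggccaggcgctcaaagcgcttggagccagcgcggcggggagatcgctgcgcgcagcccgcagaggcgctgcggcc
Cacna2d3, chr14:29721815-29722114, minus strand: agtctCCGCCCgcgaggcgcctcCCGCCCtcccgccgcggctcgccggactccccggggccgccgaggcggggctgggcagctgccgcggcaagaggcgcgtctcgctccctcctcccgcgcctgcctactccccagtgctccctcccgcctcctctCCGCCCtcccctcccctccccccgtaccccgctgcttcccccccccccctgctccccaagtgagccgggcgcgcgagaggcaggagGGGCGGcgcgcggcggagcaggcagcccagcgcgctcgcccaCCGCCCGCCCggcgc
The GC content of these windows was 80.0%, 75.7% and 81.3%, with 42, 43 and 41 CpG sites. Cacna2d1 has 7 GC boxes, Cacna2d3 has 6 and Cacna2d2 has 1, some of them overlapping. The table held 15 windows for 9 of the 10 channel genes, with a median GC content of 71.7% against 52.7% over all 32851 windows. A GC box was present in 8 of the 15 (53.3%, against 35.7% of all windows), a TATA box (TATAAA, either strand) in 1 (6.67%, against 13.6%) and a CCAAT box (CCAAT, either strand) in 4 (26.7%, against 37.4%). These matches describe the letters only.

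Cacna2d1 encodes alpha2delta-1, the binding site of gabapentin and a neuronal receptor for thrombospondins in synapse formation. Its gene level was 9.18, 9.02 and 8.99 in control, 9.36, 9.28 and 9.14 in Sfpq+/-, and 8.09, 8.30 and 7.79 in Sfpq-/-. Every Sfpq-/- array lay below every control and Sfpq+/- array, while Sfpq+/- and control overlapped. Cacna2d1 fell 2.00-fold against control (log2 change -1.003, SE 0.12, adjusted p 0.000264, 95% interval -1.27 to -0.73). Leaving out any 1 array gave changes from -1.12 to -0.87, and the change was -0.94 among male arrays (2 Sfpq-/- against 1 control) and -1.01 among female ones (1 against 2).

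Cacna2d3, which encodes alpha2delta-3, measured 7.56, 7.53 and 7.27 in control, 7.67, 7.82 and 7.67 in Sfpq+/-, and 7.25, 7.21 and 7.13 in Sfpq-/-. The Sfpq-/- arrays were lowest, but control 3 lay only just above them. The change of -0.26 did not pass (SE 0.09, adjusted p 0.107, 95% interval -0.46 to -0.05). Without control 3 it was -0.35 and passed (adjusted p 0.0320), and it also passed with array weights (adjusted p 0.0190). Within the sexes it was -0.10 among males and -0.29 among females. Cacna2d2, which encodes alpha2delta-2, the other gabapentin-binding subunit, measured 8.26, 8.18 and 7.97 in control, 8.23, 8.20 and 8.29 in Sfpq+/-, and 7.96, 8.18 and 8.07 in Sfpq-/-. The groups overlapped and the change of -0.07 did not pass (adjusted p 0.743, 95% interval -0.27 to 0.14); it was 0.16 among males and -0.26 among females.

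**Figure D2:**
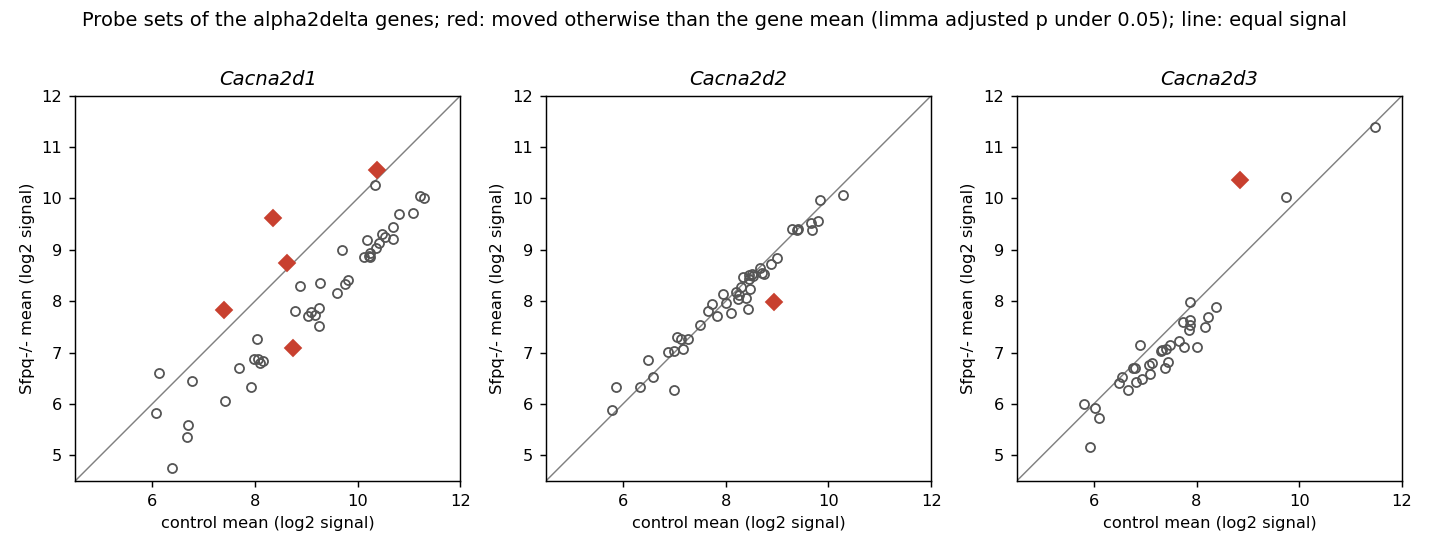
Log2 signal of single probe sets of the 3 alpha2delta genes in Sfpq-/- (vertical axis) against control (horizontal axis), group means of 3 arrays each, with the diagonal marking equal signal and red diamonds the probe sets whose deviation from the gene mean passed. Most Cacna2d1 points lie more than 1 below the diagonal (33 of 47), Cacna2d2 points lie around it, and 1 point each of Cacna2d1 and Cacna2d3 lies more than 1 above it.

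Both beta subunits were lower in Sfpq-/-. Cacnb2, a beta subunit of L-type and other high-voltage-activated channels, measured 8.02, 7.97 and 7.94 in control, 8.02, 7.98 and 7.94 in Sfpq+/-, and 7.37, 7.55 and 7.26 in Sfpq-/-. Control and Sfpq+/- arrays covered the same range and the Sfpq-/- arrays lay below it. Cacnb2 fell 1.498-fold against control (log2 change -0.58, SE 0.08, adjusted p 0.000817), with changes of -0.53 among males and -0.63 among females. Cacnb4, the beta subunit affected in the ataxic lethargic mouse, measured 8.35, 8.09 and 8.10 in control, 8.31, 8.35 and 8.34 in Sfpq+/-, and 7.56, 7.64 and 7.82 in Sfpq-/-. Its Sfpq-/- arrays were again below all others. Cacnb4 fell 1.42-fold (log2 change -0.51, SE 0.09, adjusted p 0.00455); the change was -0.37 among males and -0.66 among females, and with the median of its probe sets as gene level it was -0.40 and did not pass (adjusted p 0.102).

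**Figure D3:**
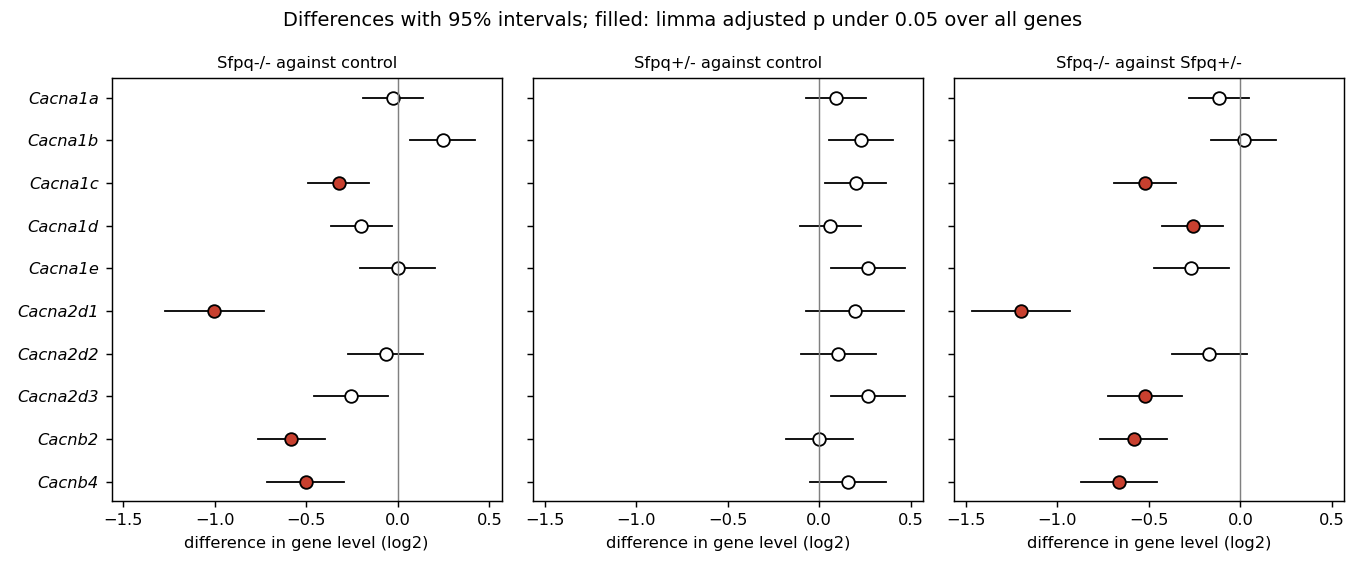
Log2 change of the gene level with its 95% interval for the 10 genes in the 3 comparisons, with filled points where the adjusted p was under 0.05. In Sfpq-/- against control the intervals of Cacna2d1, Cacnb2, Cacnb4 and Cacna1c lie furthest below 0, and in Sfpq+/- against control 9 of 10 changes are above 0 and none passed.

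In Sfpq+/- against control, 0 of the 10 genes passed in limma, as did 0% of all genes in either direction. The changes of 9 of the 10 were positive, as were 10322 of all 16854, with a median of 0.18 against 0.03 for all genes. An unadjusted p under 0.05 was reached by 4 of the 10, where 4.24% of all genes reached it: Cacna2d3 (0.27, p 0.0147), Cacna1e (0.27, p 0.0154), Cacna1b (0.23, p 0.0162) and Cacna1c (0.20, p 0.0241), each with an adjusted p of 0.886 in limma. For these 4 genes all Sfpq+/- arrays lay above all control arrays (8.52% of all genes); below them they lay for 0 of the 10 (3.99% of all genes). The Sfpq+/- arrays of Cacna1e, for example, measured 7.84, 7.81 and 7.69. The other changes were 0.20 for Cacna2d1, 0.16 for Cacnb4, 0.10 for Cacna2d2, 0.09 for Cacna1a (8.19, 8.15 and 8.06 in Sfpq+/-), 0.06 for Cacna1d and -0.00 for Cacnb2. As 2 of the 3 control arrays were female and no Sfpq+/- array was, the male arrays alone leave 1 control, against which the changes ran from -0.06 for Cacna1d to 0.45 for Cacna2d3. Both this comparison and that of Sfpq-/- use the same control arrays.

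Sfpq-/- was also compared with Sfpq+/-, a comparison that shares its Sfpq-/- arrays with the one against control. Of the 10, 6 were lower (7.25% of all genes were lower) and 0 higher (4.58% of all genes), and Sfpq-/- arrays lay below all Sfpq+/- arrays for 8 (13.6% of all genes) and above them for 0 (13.2% of all genes). Cacna2d1 differed by -1.20 (2.297-fold, adjusted p 6.99e-05), Cacnb4 by -0.66 (adjusted p 0.000723), Cacnb2 by -0.58 (adjusted p 0.000738), Cacna1c by -0.52 (adjusted p 0.000825) and Cacna2d3 by -0.52 (adjusted p 0.00292). Cacna1d differed by -0.26 with an adjusted p of 0.0472 in limma, and that call ended when any 1 array other than control 3 was left out (adjusted p 0.0542 to 0.147), and with sex in the model (0.104). Cacna1e differed by -0.27 and did not pass (adjusted p 0.0982), though it did with array weights (adjusted p 0.00380) and with a higher limit for dim probe sets (adjusted p 0.0495). Cacna2d2 (-0.17, adjusted p 0.318, and 0.0397 with array weights), Cacna1a (-0.12, adjusted p 0.409) and Cacna1b (0.02, adjusted p 0.933) did not pass.

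Ordered by group mean, Sfpq+/- was highest for 8 of the 10 genes and Sfpq-/- lowest for 9, though the order of control and Sfpq-/- turned with 1 array left out for Cacna1a and Cacna1e. The exceptions were Cacnb2, where control and Sfpq+/- had the same mean (7.98 ± 0.04 each), and Cacna1b, with means of 8.02 ± 0.08 in control, 8.25 ± 0.04 in Sfpq+/- and 8.27 ± 0.11 in Sfpq-/-. For Cacna1c, whose means were 7.67 ± 0.06, 7.87 ± 0.04 and 7.35 ± 0.10, the 3 groups were apart on every array. For the other genes at least 1 pair of neighbouring groups overlapped, except Cacna2d3, whose Sfpq-/-, control and Sfpq+/- arrays lay in 3 separate ranges (7.20 ± 0.06, 7.45 ± 0.16 and 7.72 ± 0.09).

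Single probe sets, each of which reports on a short stretch of the transcript, showed how evenly a gene's signal moved. Of the 464 kept probe sets, 48 were lower in Sfpq-/- than in control at an adjusted p under 0.05 (1.19% of all kept probe sets) and 2 were higher (0.561%). The count of lower ones was 29 without control 1, 29 without control 2 and 28 without Sfpq-/- 1. In Sfpq+/- against control 0 passed, as did 0% of all probe sets, and 354 of 464 changes were positive. Among all gene levels 10322 of 16854 changes were positive in that comparison. Probe sets of 1 gene share its transcripts and the same arrays, so they are not separate observations. In Sfpq-/- against Sfpq+/- 66 were lower (1.5%) and 2 higher (0.425%).

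Of the 48 lower probe sets, 32 belonged to Cacna2d1, out of its 47. Their gene's median probe set change was -1.28, the quartiles were -1.36 and -0.94, and 42 of 47 were negative. The probe set with the largest fall, 4377244, measured 9.30, 8.98 and 9.46 in control, 9.45, 9.16 and 9.30 in Sfpq+/-, and 7.41, 7.76 and 7.36 in Sfpq-/-. Its Sfpq-/- arrays were more than 1 below all others, and the change was -1.74 (adjusted p 0.00129, limma). Probe sets 4616673 (-1.65, adjusted p 0.00412) and 4516295 (-1.64, adjusted p 0.0289) followed. The last had a mean of 6.39 in control, 6.50 in Sfpq+/- and 4.75 in Sfpq-/-. The Sfpq-/- mean is under the limit for dim probe sets, so that this value rests on a dim signal. This probe set, which is among the 32, was kept only through the groups where it is high, and its fall is given as a description. The fall of the Cacna2d1 gene level was thus carried by most of its probe sets, bright and dim alike (median -1.28 in the brighter and -1.24 in the dimmer part).

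Cacnb2 was less even between bright and dim probe sets, with a median change of -0.90 among its 14 brighter and -0.32 among its 15 dimmer ones. The changes ran from -1.49 to 0.18, and 0 probe sets deviated from the gene mean past the threshold. Of the 29 probe sets of Cacnb2, 8 were lower. That count was 1 without control 2, 2 without Sfpq-/- 1, 3 without control 1, 4 without Sfpq-/- 3, 5 without control 3, Sfpq+/- 1 or Sfpq+/- 2, 1 with only the 2 groups in the model and 15 with array weights. Its 3 largest falls among those that passed were 5321519 (-1.28, adjusted p 0.0120), 4745784 (-1.10, adjusted p 0.00278) and 5110226 (-1.01, adjusted p 0.0358). Cacnb4 had 4 lower probe sets of 25, with 24 of 25 changes negative and a median of -0.52. The count was 0 without control 1, control 3 or Sfpq-/- 1, 2 without control 2, Sfpq-/- 2 or any 1 Sfpq+/- array, 6 without Sfpq-/- 3, 0 with only the 2 groups and 12 with array weights. The 3 largest falls that passed, 4797512, 5403333 and 4869148, lay close together at -0.93, -0.91 and -0.91 (adjusted p 0.0171, 0.0451 and 0.0168). Cacna1c had 2 of 65, namely 5092106 (-0.93, adjusted p 0.0488) and 4746810 (-0.76, adjusted p 0.0462), while 55 of 65 changes were negative. Without any 1 array other than Sfpq-/- 2 this count was 0, without Sfpq-/- 2 it was 6, and with array weights it was 18.

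No probe set passed for Cacna1a, Cacna1b, Cacna1d or Cacna1e. Their smallest p-values came with changes of 0.36 (4822618, adjusted p 0.460), 0.84 (5451426, adjusted p 0.142), -0.62 (5192858, adjusted p 0.114) and 0.53 (5094726, adjusted p 0.147). For Cacna1b 54 of 60 changes were positive, with a median of 0.24, and for Cacna1d 43 of 53 were negative, with a median of -0.22. Cacna1a (median -0.05) and Cacna1e (0.00) had changes on both sides of 0.

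**Figure D4:**
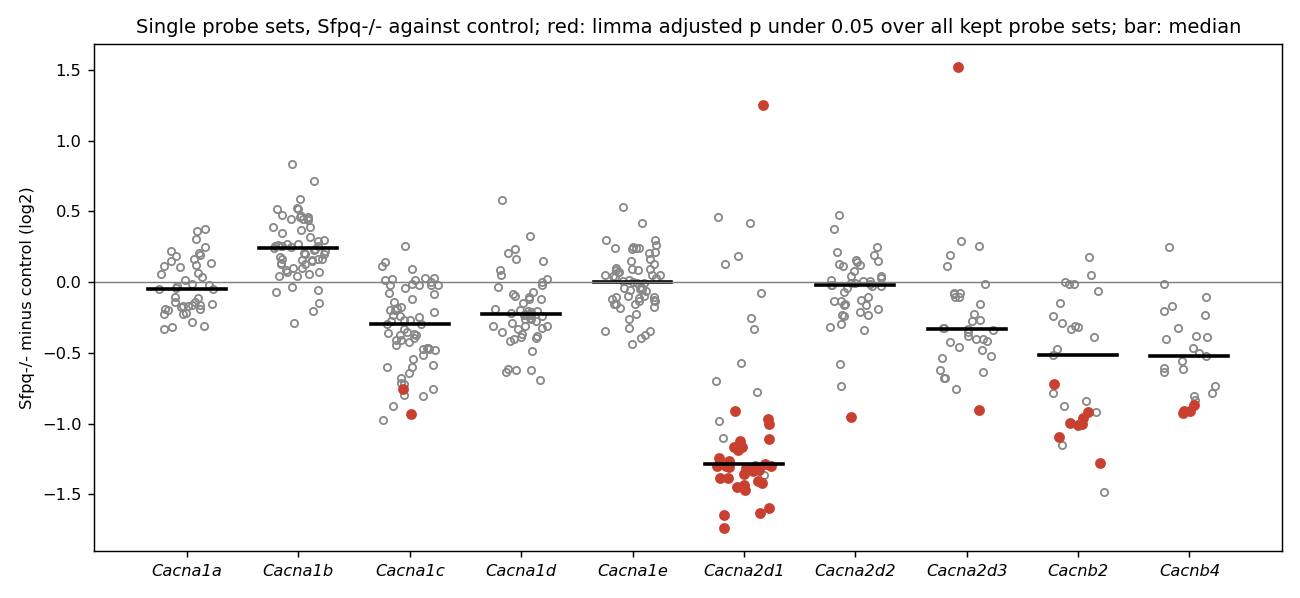
Log2 change of each kept probe set in Sfpq-/- against control, by gene, with those that passed (adjusted p under 0.05) in red and the median of each gene as a bar. The Cacna2d1 probe sets have a median of -1.28 with 1 that rose by 1.25, and the Cacna2d3 probe sets a median of -0.33 with 1 that rose by 1.52.

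The 2 probe sets that rose belonged to genes whose other probe sets mostly fell. In Cacna2d1, probe set 4455473 measured 8.36, 8.27 and 8.44 in control, 8.80, 8.69 and 8.46 in Sfpq+/-, and 9.27, 9.82 and 9.75 in Sfpq-/-. It was highest in every Sfpq-/- array and rose by 1.25 (SE 0.18, adjusted p 0.00670). In Cacna2d3, probe set 4932838 measured 8.87, 8.85 and 8.81 in control, 9.26, 9.19 and 9.15 in Sfpq+/-, and 10.51, 10.07 and 10.52 in Sfpq-/-. The groups were apart on every array, in the order control, Sfpq+/- and Sfpq-/-, and the rise against control was 1.52 (SE 0.15, adjusted p 0.00115), while 30 of the gene's 35 changes were negative and 1 probe set fell (4764274, -0.90, adjusted p 0.0250).

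Each probe set's deviation from its own gene's mean was tested in the same model over 248590 probe sets. Of the channel probe sets, 5 rose against their gene (0.483% of all did) and 2 fell against it (0.444% of all). Probe set 4455473 deviated by 2.26 (adjusted p 0.00119) and 4932838 by 1.78 (adjusted p 0.00135). The other 3 that rose against their gene were all in Cacna2d1 and did not change themselves past the threshold: 5241100 (change 0.42, deviation 1.42, adjusted p 0.0431), 5541292 (change 0.19, deviation 1.19, adjusted p 0.00512) and 5411688 (change 0.13, deviation 1.13, adjusted p 0.0174). Probe set 5541292 is bright (10.37 in control, 10.56 in Sfpq-/-), whereas 5241100 measured 7.40 ± 0.68 in control (SD, n = 3). Against the other direction, Cacna2d1 4616673 fell more than its gene (deviation -0.64, adjusted p 0.0373).

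Cacna2d2, whose gene level did not change past the threshold, held 1 probe set that fell, 5093014. It measured 8.98, 8.90 and 8.93 in control, 8.49, 8.75 and 9.07 in Sfpq+/-, and 7.97, 7.95 and 8.03 in Sfpq-/-. The Sfpq-/- arrays were lowest and close together, the Sfpq+/- arrays spread widely, and the fall was 0.96 on the log2 scale (log2 change -0.96, adjusted p 0.0169; deviation from the gene -0.89, adjusted p 0.0257). Positions of these probe sets within their genes were not used here.

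The channel genes are long, and long genes as a class were lower in Sfpq-/-. By RefSeq (GRCm38.p6) Cacna2d3 spans 818 kb and Cacna1c 610 kb, and of the 205 tested genes of 500 kb or more 58.0% were lower, with a median change of -0.45; of these 2, Cacna1c passed. Between 200 and 500 kb lie Cacna1e (494 kb), Cacna1d (451 kb), Cacna2d1 (440 kb), Cacnb2 (385 kb), Cacna1a (302 kb) and Cacnb4 (248 kb). Of the 713 genes in that class 38.1% were lower (median -0.18), and of these 6 genes Cacna2d1, Cacnb2 and Cacnb4 were. Cacna1b (159 kb) and Cacna2d2 (130 kb) lie between 100 and 200 kb, where 16.2% of 1336 genes were lower and 7.49% higher. Across the 10 genes, which share the same arrays, Pearson's r between log10 span and change was -0.361 and Spearman's rho -0.224, a description without a test. The longest, Cacna2d3, changed by -0.26, and Cacna1e, at 494 kb, by -0.00.

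**Figure D5:**
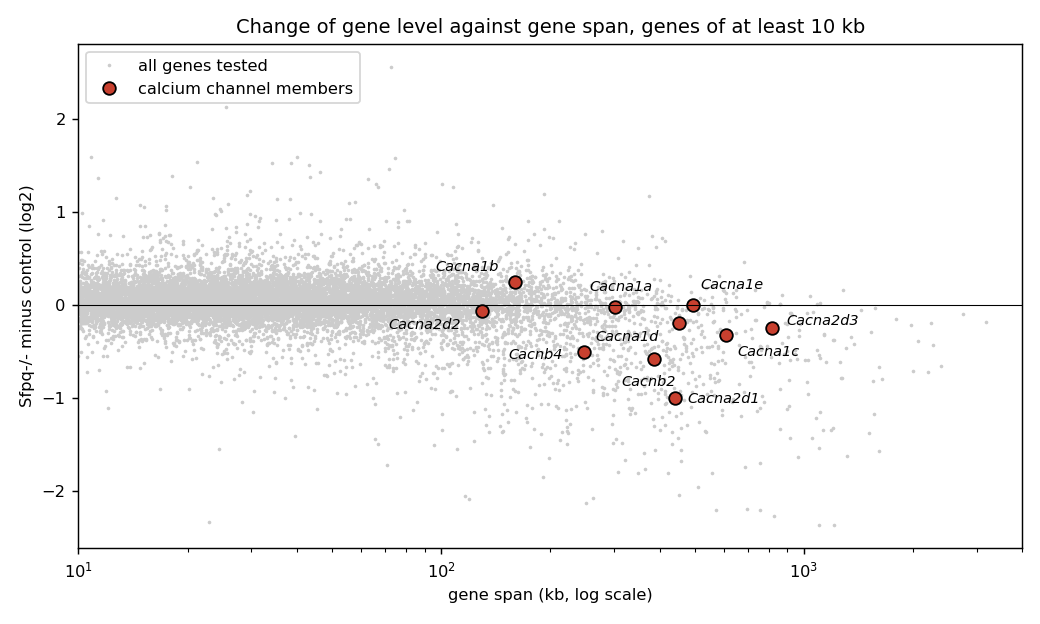
Log2 change in Sfpq-/- against control (vertical axis) against genomic span in kb (horizontal axis, log scale) for the tested genes of at least 10 kb, with the 10 channel genes named. Cacna2d1 lies at 440 kb and -1.003, below Cacna1d and Cacna1e of similar span at -0.20 and -0.00.

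Of 16 other voltage-gated calcium channel genes 14 were measured, and 1 was lower and 3 higher in Sfpq-/- than in control, where 6.12% of all genes were lower and 5.98% higher. The single lower gene of 14 is thus near the share over all genes. Cacng4, a gamma subunit that also acts as an auxiliary subunit of AMPA receptors, measured 11.24, 11.35 and 11.35 in control, 11.39, 11.20 and 11.31 in Sfpq+/-, and 10.29, 10.56 and 10.51 in Sfpq-/-. Its Sfpq-/- arrays lay below all others, and it fell by 0.86 (SE 0.09, adjusted p 0.000102). Cacnb3, another beta subunit, measured 10.05, 9.99 and 9.99 in control and 10.32, 10.23 and 10.44 in Sfpq-/-, opposite to Cacnb2 and Cacnb4 (change 0.32, adjusted p 0.0256). Cacna1i, the T-type channel Cav3.3, rose by 0.30 (adjusted p 0.0459), and Cacng3, another gamma subunit with 3 kept probe sets, by 0.78 (adjusted p 0.0249).

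These 3 rises were not stable. The call of Cacnb3 ended without control 2 (adjusted p 0.0966), control 3 (0.0769), Sfpq-/- 1 (0.0777) or Sfpq-/- 3 (0.0558), and that of Cacng3 without control 2 (0.103), control 3 (0.0760) or any 1 Sfpq-/- array (0.0511 to 0.0806). That of Cacna1i ended when any 1 array other than control 3 was left out (0.0501 to 0.174). With the upper quartile as limit for dim probe sets the change of Cacna1i was 0.15 (adjusted p 0.264), with only the 2 groups in the model the adjusted p of Cacnb3 was 0.0578, and with the median as gene level that of Cacng3 was 0.114. Further settings that ended the call of Cacna1i gave adjusted p-values of 0.0521 to 0.0887. The other 10 did not pass: Cacna1g 0.22, Cacng8 0.09, Cacna1h 0.07, Cacng5 0.06, Cacna1s 0.05, Cacna2d4 0.03, Cacna1f 0.02, Cacng1 -0.01, Cacnb1 -0.07 and Cacng2 -0.13. Several of these small changes turned sign under other settings (Cacng8, Cacng5, Cacna1s, Cacna2d4, Cacna1f and Cacng1). With array weights Cacng8 changed by 0.25 and passed (adjusted p 0.0252, limma). Cacng6 and Cacng7 were not measured here.

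Genes that work with the channels moved in part. Of 7 RGK and Stac genes, which regulate channel trafficking and gating, 2 were lower and 1 higher. Of all genes, 6.12% were lower and 5.98% higher. Gem fell by 0.56 (adjusted p 0.00180) and Stac by 0.29 (adjusted p 0.0273), and Rem2 rose by 0.68 (adjusted p 0.000276, limma). Stac2 did not pass (0.29), though it did with the upper quartile as limit for dim probe sets (adjusted p 0.0166) and with array weights (0.0115). All 4 measured thrombospondin genes, ligands of alpha2delta-1, were higher, as were 5.98% of all genes. Thbs2 rose by 0.76 (adjusted p 0.0297), Thbs1 by 0.43 (adjusted p 0.00636), Thbs3 by 0.34 (adjusted p 0.0257) and Thbs4 by 0.29 (adjusted p 0.0460). Cacna2d1 moved the other way, and a link between ligands and receptor was not tested. Leaving out 1 array ended the call of Stac in 5 of 9 fits, of Thbs2 and Thbs3 in 4 each and of Thbs4 in 7, and that of Thbs1 in 0. The calls of Stac, Thbs2, Thbs3 and Thbs4 also ended under other settings, with adjusted p-values of up to 0.352. Microglia markers, 7 of 10 of them higher, had sums of 2.34 to 2.44 in control and 2.90 to 2.99 in Sfpq-/-, which do not overlap. Of endothelial and pericyte markers 1 of 9, Rgs5, was higher, with overlapping sums (4.76 to 5.33 and 5.25 to 6.22). Meninges and mesenchyme markers (0 of 9 called, median change 0.16) also had overlapping sums, of 4.65 to 5.77 in control and 5.34 to 6.16 in Sfpq-/-. The part of these cells in the higher thrombospondin levels was not tested.

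The counts in the next 3 lists stand beside 6.12% of all genes lower and 5.98% higher. Of 18 presynaptic partners of the channels 3 were lower and 0 higher. The lower ones were the active zone scaffold Erc2 (-0.91, adjusted p 0.000111), the calcium sensor Syt1 (-0.77, adjusted p 0.000180) and the scaffold Rims1 (-0.32, adjusted p 0.0132, limma). Without Sfpq-/- 1 the adjusted p of Rims1 was 0.0696. Bsn did not pass (-0.26), though it did without Sfpq-/- 3 (adjusted p 0.0313) and with array weights (0.00709). Of 20 genes of calcium release, pumps and exchange 4 were lower and 0 higher: the sodium-calcium exchangers Slc8a1 (-0.95, adjusted p 5.70e-05) and Slc8a3 (-0.42, adjusted p 0.0156), the plasma membrane pump Atp2b2 (-0.60, adjusted p 0.00190) and the release channel Ryr3 (-0.27, adjusted p 0.0430). Ryr3 lost its call in 8 of 9 fits without 1 array and Slc8a3 in 3, and with the upper quartile as limit for dim probe sets the change of Ryr3 was -0.08 (adjusted p 0.544). Of 18 calcium-calmodulin kinases and phosphatases 3 were lower, Camk1d (-0.57, adjusted p 0.00203), Ppp3ca (-0.54, adjusted p 0.000547) and Camk4 (-0.36, adjusted p 0.0101), and Camk2a was higher (0.61, adjusted p 0.000942). The call of Camk4 ended without Sfpq-/- 1 (adjusted p 0.0562), with no limit for dim probe sets (0.0574), with the upper quartile as limit (change -0.20, 0.0738) and with the median as gene level (0.107). The lower genes of these 3 lists span 136 kb (Slc8a3) to 856 kb (Erc2), and Camk2a spans 63 kb. The longest genes of these lists that did not pass were Ryr2 (554 kb, change 0.00), Unc13c (529 kb, 0.05) and Rims2 (486 kb, 0.31). Of all genes of 100 to 200 kb 16.2% were lower, of 200 to 500 kb 38.1%, and of 500 kb or more 58.0%. The part of gene length in these falls was not tested.

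Sodium channel genes, a list with auxiliary subunits such as Scn2b beside the pore-forming ones, gave 1 lower and 2 higher of 12. The lower count is near the 6.12% over all genes. Scn11a rose by 1.46 (adjusted p 1.10e-06), with a mean of 6.30 in control and 7.75 in Sfpq-/-. Scn2b rose by 0.32 (adjusted p 0.0222) and Scn8a fell by 0.29 (adjusted p 0.0395), calls that ended in 4 and in 8 of 9 fits without 1 array. With the upper quartile as limit for dim probe sets the changes were 0.14 (adjusted p 0.414) and -0.16 (adjusted p 0.165), and both calls also ended with the lower quartile (0.0549 and 0.0730) and with no limit (0.0603 and 0.100). Nalcn, the sodium leak channel, did not pass (-0.34, adjusted p 0.108), though it did without control 3 (-0.47, adjusted p 0.0261) and with array weights (-0.35, adjusted p 0.0147).

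The mean of the 10 centred gene levels was 0.11, 0.01 and -0.00 on the control arrays, 0.22, 0.21 and 0.15 on the Sfpq+/- arrays and -0.28, -0.17 and -0.25 on the Sfpq-/- arrays. The groups did not overlap in this mean. Outside the 10, the genes whose level followed it most closely over the 9 arrays were Adgrl3 (Pearson's r 0.992), Aldh1l2 (0.991), Nfib (0.988), Nedd4l (0.983) and Bcas3 (0.982). Their log2 changes in Sfpq-/- against control were -0.56, -0.40, -0.32, -0.63 and -0.45. This order is a description over 9 arrays in 3 groups and carries no test.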

How the data were processed

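The values deposited by the authors are log2 signals per probe set of Affymetrix mouse exon arrays, and the submitters' processing notes name Affymetrix Expression Console 1.2.0.20 as the software; the design text also names the Exon Array Computational Tool. How background, normalization and summary were handled, and on which build, was not given in the sources used here. Groups came from the genotype labels; the extraction notes name Sfpq+/- in 2 places and Sfpq-/- in none. No further normalization was applied. No 2 arrays held identical values.

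Of 1256831 probe sets, 318760 (25.4%) had 1 gene symbol in the platform annotation, 6684 had several and were used in no gene, and 931387 had none there. Symbols were updated through RefSeq synonyms. A probe set was kept if its 9-array mean exceeded 5.64, the median of such means (628415 were). A gene with 3 or more kept probe sets was given their mean as its level. A linear model on all 9 arrays, with a mean per group and nothing else, was fitted in limma 3.58.1 (R 4.3.3), with Benjamini-Hochberg adjustment over all genes, or over all probe sets, and a threshold of 0.05. Deviations are each probe set minus its gene's level on the same array. The number of arrays limits the precision. The median standard error of a difference was 0.096 per gene.

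On simulated data for Sfpq-/- against control, the gene test (16854 genes) found 46.3% of planted changes of 0.5, 94.0% of 1 and 100% of 2. It made 10 false calls there, among genes without a planted change. In Sfpq+/- against control, where nothing was planted in any gene, it made 0 calls. The probe set test (628415) found 3% of changes of 1 and 60% of 2, with 3 false calls. The deviation test (248590) found 37% and 85%, with 11 false calls. All simulated noise was normal and independent between genes and arrays. In the gene test 67, 67 and 66 genes carried the planted changes, whereas in the data 1032 genes were lower and 1008 higher. The shares found may therefore differ from those in the data.

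The 10 genes and the lists of related genes and markers were chosen with earlier results of these data known, so their counts are descriptions beside those of all genes. The text names all 10 genes, all other measured calcium channel genes, up to 4 genes per other list with the smallest adjusted p and every one that passed, up to 3 probe sets per gene and direction that passed (or the 1 with the smallest p), the 5 genes closest in pattern, Sfpq and Xist. The probe sets whose deviation passed are named outside this rule, chosen after their values were seen. So are the marker genes named in the text, and Ryr2, Unc13c and Rims2. Gene spans were matched by symbol to RefSeq (GRCm38.p6) for 16707 of 16854 genes (99.1%), and promoter windows come from the same build.

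Alternatives tried were other limits for dim probe sets, the median as gene level, quantile normalization, centring, an intensity trend, array weights, only the groups compared, sex, a replicate block, and leaving out each array.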

Additional observations from a re-analysis of the deposited data

How the results depend on the processing

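The 71 tested results gave 1418 values under the alternatives, of which 1247 kept their direction and side of the threshold. Values that passed neither before nor after also count among the 1247. Of the rest, 120 lost their call, 13 gained one and 38 turned sign, and no passing result changed direction. In Sfpq-/- against control Cacna1i, Ryr3 and Scn8a each lost their call in 14 of 20 alternatives. Lower channel genes in Sfpq-/- against control numbered 3 to 4 without 1 array and higher ones 0; against Sfpq+/- 5 to 6 were lower and 0 higher, and in Sfpq+/- against control 0 in either direction. With array weights 1 of the 10 genes was higher, and 92 of their probe sets were lower and 8 higher. Lower probe sets numbered 31 with no limit for dim probe sets, 27 with only the 2 groups compared, and 28 to 47 without 1 array (higher 2 to 3). Other channel genes gave 1 higher with the upper quartile as limit and 1 with only the 2 groups; without 1 array 1 was lower and 0 to 2 higher. The cause of these differences was not tested.

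None of the values that turned sign had passed. In Sfpq+/- against control Cacnb2 gave 0.0068 with the lower quartile and with no limit, 0.031 with the upper quartile, 0.097 with the median gene level, 0.00018 with array weights, 0.0089 with sex and -0.021 to 0.022 without 1 array, Cacna2d2 -0.033 with the median and Cacna1d -0.0017 with sex. Against control, Sfpq-/- gave for Cacna1a 0.0068 (no limit), 0.026 (median), 0.0091 (sex) and -0.070 to 0.0022 (without 1 array), for Cacna1s -0.0072 (no limit), -0.013 (upper quartile), -0.012 (median) and -0.017 to 0.12, for Cacna1f -0.062 (median), -0.048 (weights) and -0.068 to 0.080, for Cacng1 0.13 (median) and -0.13 to 0.099, for Cacng5 -0.026 (upper quartile) and -0.0065 to 0.11, for Cacng8 -0.042 (median), for Cacna2d4 -0.025 (sex) and -0.086 to 0.15, and for Cacna1e -0.064 to 0.088. Cacna1b against Sfpq+/- gave -0.059 (weights) and -0.038 to 0.069.

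Whether replicate numbers pair the samples was not settled. Deviations of same-numbered samples correlated between -0.06 and 0.57, below 0.1 for 4 of 9 pairs. For replicate 3 the correlations were 0.31, 0.57 and 0.30, and differently numbered samples were not compared. With the replicate block 1166 of all genes were lower and 1303 higher in Sfpq-/- against control, where the main fit gave 1032 and 1008. With the replicate block 4 channel genes were lower against control, Cacna1c had an adjusted p of 0.0223 in limma, and 44 probe sets were lower and 2 higher. The array weights for probe sets were estimated on gene levels, and the median gene level has no probe set count.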
